A study of Mus musculus with 16 samples.

Results

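DNA break ends were mapped by BLISS (in situ labelling and sequencing of DNA double-strand break ends) in AB22 cells, a mouse malignant mesothelioma line, that carried either a control hairpin (shCTRL) or a hairpin against HMGB1 (shHMGB1) and received no irradiation. The comparison was made of the libraries whose labels name the hairpin and an untreated state: 2 shHMGB1 and 2 shCTRL libraries, 4 of 16 in the series, with 2450271 of the 11380784 break ends placed on the main chromosomes. Both groups were made by infection with pTRIPZ hairpin virus at a multiplicity of 20 and puromycin selection. Both were grown in 5% oxygen, were given 1 uM doxycycline for 7 to 10 days to switch the hairpin on, and were synchronised in G1. The dose was 0 Gy in both groups, and the other 12 libraries came from the same lines after 3, 5 or 10 Gy from a caesium source. Each hairpin is represented by 1 line, and whether its replicates came from separate infections is not stated. A difference between infected, selected cell populations and an effect of the hairpin therefore cannot be told apart. The submitters describe the 2 replicates of each condition as biological, without saying what separates them, so p-values measure the spread between these libraries.

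HMGB1 is an abundant chromatin protein that bends DNA through its HMG boxes and makes nucleosomes more mobile. In BLISS, ends of broken DNA are ligated to an adapter inside fixed cells, copied into RNA by in vitro transcription and sequenced, and molecular identifiers let each ligated end be counted. Unirradiated cells carry breaks from transcription and topoisomerases, and repeated sequences collect many mapped ends. The series concerns, by its title, how nucleosomes bear on breakage by irradiation, and the unirradiated libraries show the state before it. BLISS does not measure RNA or protein, so the depth of the HMGB1 knockdown was not checked here.

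Without irradiation, the places where break ends lay did not differ detectably between the lines at the level of genes, promoters or windows. Of 12848 genes tested, 0 passed edgeR's quasi-likelihood test at a Benjamini-Hochberg adjusted p under 0.05 (0% of genes), 0 passed with DESeq2, and 649 genes, 5.05%, had an unadjusted p under 0.05. Counts were also at 0 for 398 promoters (0%), 2578 windows of 1 Mb (0%) and 25127 windows of 100 kb (0%), with 16, 95 and 1382 of them at an unadjusted edgeR p under 0.05. DESeq2 called 0 promoters and 0 windows of either size as well, with 9, 67 and 686 at an unadjusted p under 0.05. Leaving out shCTRL replicate 2 gave 1 gene, Smox, and 1 window of 100 kb, chr2:131500001-131600000 around Smox, both lower in shHMGB1. Leaving out shHMGB1 replicate 2 gave 1 window of 100 kb, chr4:55800001-55900000, higher in shHMGB1.

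How firmly these counts can be read depends on the size of the feature. For windows of 1 Mb the median 95% interval reached 0.38 to each side on the log2 scale, and 2527 of 2578 intervals, 98.0%, lay within a 2-fold difference. For genes the median interval reached 1.24 to each side, and 1996 of 12848, 15.5%, lay within 2-fold. For promoters the interval reached 2.05, and 13 of 398 lay within 2-fold. Differences of 2-fold in a single gene or promoter were therefore mostly not detectable at this depth, whereas for most 1 Mb windows they lay outside the interval.

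**Figure D1:**
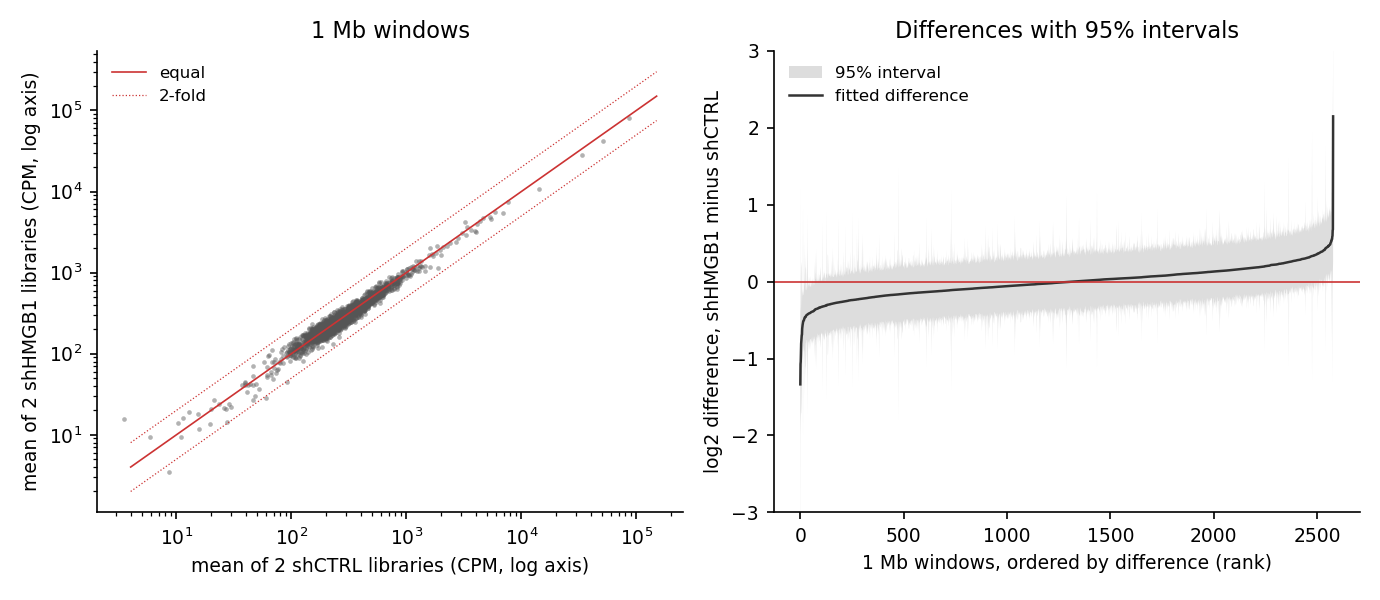
Left, mean break ends (CPM, log axes) in each 1 Mb window for the 2 shCTRL and the 2 shHMGB1 libraries at 0 Gy, with lines of equality and of 2-fold difference. Right, the fitted log2 difference of each of the 2578 windows in order, with its 95% interval, of which 95 did not include 0 and 2 run past the axis.

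The number of ends recovered was higher in both shHMGB1 libraries. There were 485043 ends in shCTRL replicate 1, 392139 in shCTRL replicate 2, 691644 in shHMGB1 replicate 1 and 881445 in shHMGB1 replicate 2. The ratio of geometric means was 1.79-fold, and the exact two-sided permutation test gave p = 0.333, the smallest p that 2 libraries against 2 allow. Breaks per cell and cells per library cannot be told apart from these files. Across the 12 irradiated libraries totals ran from 131430 to 1010888. The mitochondrial share of all ends was 0.369% and 0.217% in the shCTRL and 0.297% and 0.261% in the shHMGB1 libraries, which overlapped.

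At rest, break ends were concentrated on promoters and exons. Promoters, here the bases within 1 kb of a protein-coding start site, make up 1.52% of the genome. They held 15.2% and 12.1% of ends in the shCTRL libraries and 12.5% and 13.3% in the shHMGB1 libraries. Exons outside promoters, 3.69% of the genome, held 14.1% and 13.9% in shCTRL and 14.1% and 12.02% in shHMGB1. Both classes were thus several-fold denser in ends than their share of bases in all 4 libraries.

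Introns and intergenic DNA made up the rest. Introns held 37.1% and 41.8% of ends in shCTRL and 39.7% and 40.4% in shHMGB1, beside 39.2% of the genome. Intergenic DNA, 55.6% of the genome, held 33.6% and 32.3% in shCTRL and 33.7% and 34.2% in shHMGB1. For promoters, exons and introns the lines overlapped or crossed, with differences of -0.736, -0.936 and 0.664 percentage points and exact permutation p of 1, 0.667 and 1. The intergenic share was 33.0% ± 0.924 (SD, n = 2) in shCTRL and 33.96% ± 0.393 in shHMGB1. Both shHMGB1 libraries lay above both shCTRL libraries by this measure, though shCTRL replicate 1 and shHMGB1 replicate 1 were nearly level, with an exact permutation p of 0.333 and 1 after adjustment over the 4 regions. Outside the dense regions described next the lines overlapped, with 39.6% and 35.2% in shCTRL and 37.9% and 38.4% in shHMGB1.

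Much of the promoter share came from a few places. A set of 32 dense regions, each built around a cluster of 1000 or more ends in some library of the series, with 1 kb added on both sides and covering 78453 bases in all, held 26.7% and 21.5% of ends in shCTRL and 22.6% and 21.5% in shHMGB1. Only 7 of 21938 promoters lay in them, yet these 7 held 80.2%, 72.8%, 74.3% and 77.1% of all promoter ends in shCTRL replicates 1 and 2 and shHMGB1 replicates 1 and 2. Outside the dense regions the promoter share was 4.10% in each shCTRL library and 4.05% and 3.79% in the shHMGB1 libraries. With libraries thinned to 392139 ends and each position counted once, promoters held 4.61%, 4.47%, 4.46% and 4.14% in the same order. The shHMGB1 libraries then lay below both shCTRL libraries, with a mean difference of -0.242 points, less than the distance between the shHMGB1 replicates.

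**Figure D2:**
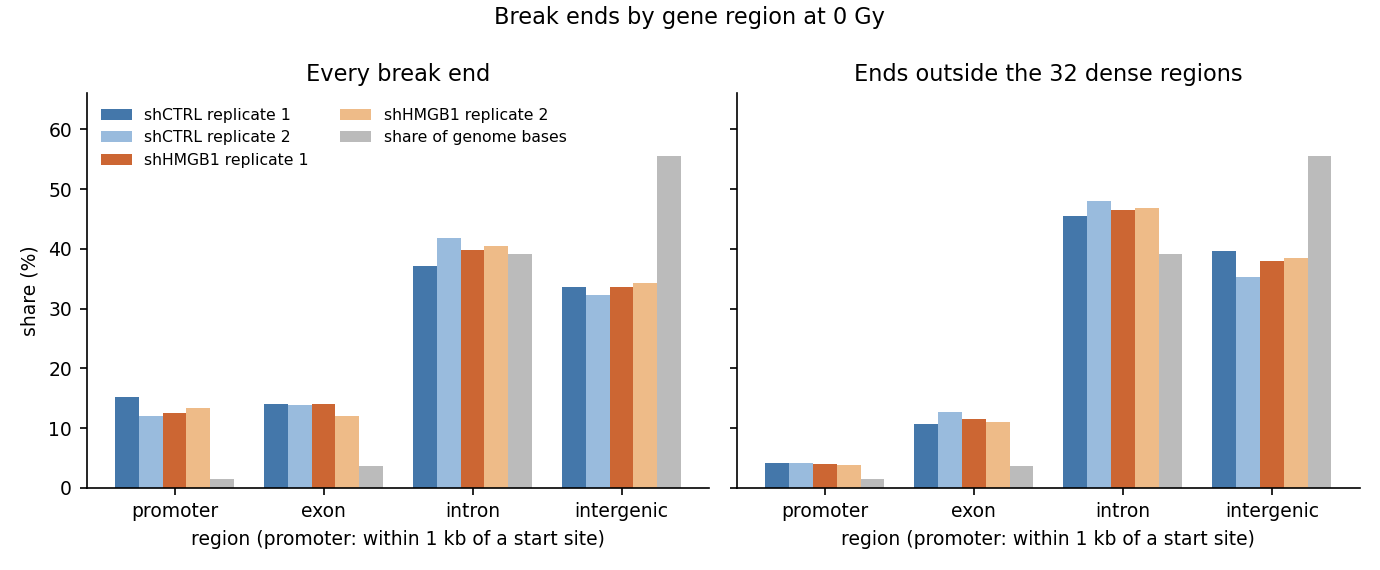
Share of break ends (%) in promoters, exons, introns and intergenic DNA for each of the 4 libraries at 0 Gy, over every end (left) and outside the 32 dense regions (right), beside each region's share of genome bases in grey. Promoters and exons stand above their share of bases in every library, and the promoter share falls to between 3.79% and 4.10% once the dense regions are left out.

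Around start sites the ends formed a peak just inside the gene. Outside the dense regions, and with each position counted once, the highest of the 200-base bins was centred 100 bases downstream of the start site in all 4 libraries. Its density was 4.12-fold and 3.98-fold over the genome mean in shCTRL and 4.08-fold and 3.63-fold in shHMGB1. The density stayed higher downstream than upstream: between 3 and 5 kb it was 1.92, 2.02, 1.90 and 1.84 times the genome mean inside genes, and 1.42, 1.38, 1.37 and 1.35 times upstream. Counting every end, the peak was 4.23, 4.03, 4.17 and 3.87 times the mean, in shCTRL replicates 1 and 2 and shHMGB1 replicates 1 and 2, and in shCTRL replicate 2 it stood at 500 bases.

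**Figure D3:**
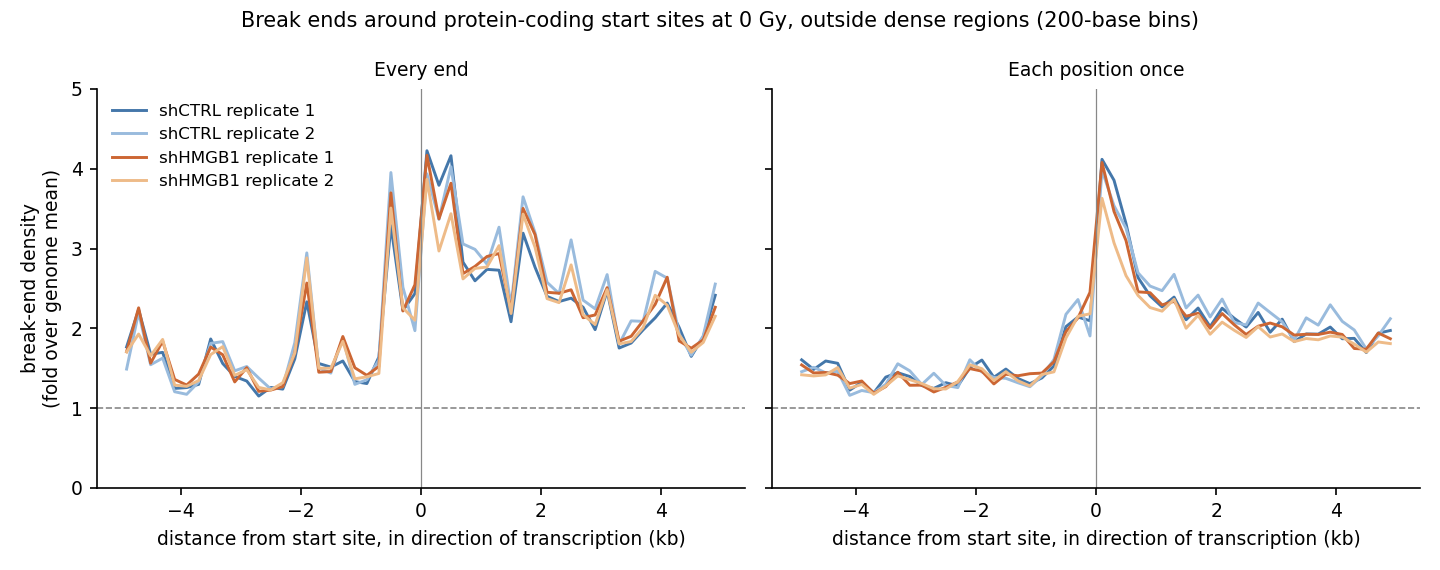
Break-end density around protein-coding start sites (fold over the genome mean, 200-base bins, distance in kb) in the 4 libraries at 0 Gy outside dense regions, counting every end (left) or each position once (right). The lines of both hairpins lie close together, with peaks between 3.63 and 4.12 times the mean when each position counts once.

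Most promoters held no end at this depth: 73.7% and 76.4% of 21938 in shCTRL, and 62.7% and 57.7% in the larger shHMGB1 libraries. Ends were more frequent at GC-rich promoters. This was read over 16522 RefSeq promoter windows on GRCm38.p6 outside the dense regions, which are shorter than the 1 kb each side used above. The 1518 promoters under 40% GC had 0.113 and 0.179 CPM per kb in shCTRL and 0.210 and 0.212 in shHMGB1. That class rests on few ends, 0.016 and 0.021 per promoter in shCTRL and 0.043 and 0.056 in shHMGB1. Those of 60 to 70% GC had 0.762 and 0.956 in shCTRL and 1.06 and 0.943 in shHMGB1. At 70% GC or more they had 0.728 and 0.597 in shCTRL and 0.905 and 0.703 in shHMGB1, so the density was higher above 60% GC than under 40% GC in all 4 libraries but did not keep rising, and the lines overlapped in the richer classes.

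Among the densest promoters outside the dense regions were those of the ribosomal protein genes Rpl7a, Rpl13 and Rpl23. The start region shared by Rpl7a, a large-subunit ribosomal protein, and Med22, a Mediator subunit, held 473 and 432 ends in shCTRL and 709 and 800 in shHMGB1. Most of them lay in Gm23969, a small nucleolar RNA gene inside Rpl7a, with 433 and 372 in shCTRL and 639 and 727 in shHMGB1. The rank of this window therefore comes mainly from that gene rather than from the start site. The Atp5b promoter, of the ATP synthase beta subunit, held 83 and 153 in shCTRL and 170 and 283 in shHMGB1. As a share of library size these overlapped between the lines.

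Some promoters owed their rank to 1 base. At Bmp7, a secreted growth factor of the BMP family, 235 of 238, 78 of 78, 192 of 193 and 114 of 115 ends lay at a single base 11 bases upstream of the start, 99.2% over the 4 libraries. At Pdzd8, a protein of contacts between the endoplasmic reticulum and other organelles, 95.8% of the ends in the RefSeq promoter window lay at chr19:59345821 on GRCm38.p6, 41 bases upstream of the start, with 47 and 16 ends in shCTRL and 62 and 56 in shHMGB1. Pdzd8 was chosen after its values were seen, as a promoter whose sequence was at hand. The 100 bases before that start (chr19:59345781-59345880, minus strand, 82.0% GC) are shown from the RefSeq promoter table because all 4 libraries had ends at the same base of them, given as a capital.

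Pdzd8 upstream: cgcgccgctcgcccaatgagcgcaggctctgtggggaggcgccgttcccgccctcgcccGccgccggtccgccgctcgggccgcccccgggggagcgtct

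Among genes with predicted ones left out, the hosts of small nucleolar RNAs (snoRNAs) had the highest densities outside repeats. The snoRNA hosts Snhg1, Snhg6, Gas5 and Snhg12 and the nuclear RNA Malat1 led, in CPM (break ends scaled to a library total of 1e+06) per kb of gene. The predicted gene Gm12238, 124 bases long, was denser than Snhg1 in each library, with 964 and 1522 in shCTRL and 1691 and 1446 in shHMGB1. Snhg1 had 739 and 1304 in shCTRL and 1010 and 1148 in shHMGB1. Snhg6 had 556 and 1622 in shCTRL and 722 and 1246 in shHMGB1. Malat1, a long RNA that stays in nuclear speckles, had 573 and 787 in shCTRL and 549 and 567 in shHMGB1. For Snhg1 and Snhg6 both shHMGB1 values lay between the shCTRL values. For Malat1 both lay below, with a fitted log2 difference of -0.29 ± 0.35 (SE) that did not pass the test.

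Next came ribosomal protein genes with snoRNAs in their introns. Rpl13a had 237 and 581 CPM per kb in shCTRL and 378 and 460 in shHMGB1. Rpl7a had 395 and 454 in shCTRL and 423 and 381 in shHMGB1. In the snoRNA hosts Snhg6, Snhg1 and Gas5, and in Rpl13a, replicate 2 of each line was higher than replicate 1. Snhg12, with 507 and 899 in shCTRL and 687 and 653 in shHMGB1, and Rpl7a went opposite ways in the lines.

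Within snoRNA genes with at least 20 ends, most of the ends sat near the gene's own edges. snoRNAs are short RNAs, most of them cut from introns, that guide chemical modification of ribosomal RNA. snoRNA genes cover 171083 bases, 0.00628% of the genome, and held 2.12% and 3.61% of ends in shCTRL and 2.71% and 2.97% in shHMGB1. Of 1477 snoRNA genes, 1143 had no end in any of the 4 libraries and 182 had at least 20. In those 182, the 10 bases at either end of the gene are 19.1% of its length, and they held 53.7% and 62.6% of ends in shCTRL and 59.3% and 62.9% in shHMGB1. The base with the most ends lay within 10 bases of an edge in 112 of the 182, near the 5′ edge in 78 and near the 3′ edge in 34.

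A set of 5 snoRNA genes with many ends at an edge, chosen after their values were seen, are shown 5′ to 3′ as the GENCODE M21 transcripts on GRCm38 give them, with the base that held the most ends as a capital. In the first 2 it lies close to the 3′ end of the gene and in the last 3 it is the first base. Other snoRNA genes with many ends, not shown, had it further in, at base 75 of 90 in Snord35a, 36 of 81 in Snord80 and 59 of 70 in Snord82.

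Snord87: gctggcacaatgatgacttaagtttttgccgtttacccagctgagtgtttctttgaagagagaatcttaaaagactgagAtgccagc
Snord83b: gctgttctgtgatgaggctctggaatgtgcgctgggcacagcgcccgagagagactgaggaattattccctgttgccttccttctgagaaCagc
Gm25894: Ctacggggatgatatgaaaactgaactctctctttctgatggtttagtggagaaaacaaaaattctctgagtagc
Gm23969: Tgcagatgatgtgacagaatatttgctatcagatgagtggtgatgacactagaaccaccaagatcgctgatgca
Gm24453: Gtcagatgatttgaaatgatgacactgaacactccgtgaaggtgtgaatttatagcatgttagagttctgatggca

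Snord87 (chr1:9942463-9942549, minus strand, inside Snhg6) held 582 and 1372 ends in shCTRL and 1071 and 2370 in shHMGB1, and 91.9% of them were at base 80 of its 87. Snord83b (chr15:80078498-80078591, minus strand, inside Rpl3) held 533 and 639 in shCTRL and 918 and 1114 in shHMGB1, with 83.2% at base 91 of 94. In both, that base held most of the gene's ends in all 4 libraries.

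The predicted snoRNA genes among those shown had the pattern at the other edge. This did not follow from being predicted, since the named Snord99, not shown, had its leading base at base 4 of its 74. Gm25894 (chr19:8724251-8724325, plus strand, inside Snhg1) held 399 and 423 ends in shCTRL and 626 and 820 in shHMGB1, with 59.8% at its first base. Its neighbour in Snhg1, Gm24453 (chr19:8724868-8724943), held 163 and 422 in shCTRL and 310 and 740 in shHMGB1, with 51.1% at the first base. Gm23969 (chr2:26911261-26911334, inside Rpl7a) held 433 and 372 in shCTRL and 639 and 727 in shHMGB1, with 38.2% at the first base, and this base is the one that led the Rpl7a promoter window. The files keep no strand, so which side of a break each end came from is not known here.

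The other RNA gene classes held smaller shares of ends than snoRNA genes. Ribosomal RNA genes cover only 42300 bases, 0.00155% of the genome, and per base were denser in ends than snoRNA genes in all 4 libraries. scaRNA genes cover 7505 bases, 0.000276% of the genome. Ribosomal RNA genes held 1.77% and 1.55% of ends in shCTRL and 1.77% and 1.34% in shHMGB1, small nuclear RNA genes 0.151% and 0.155% against 0.187% and 0.139%, and scaRNA genes 0.0717% and 0.0951% against 0.0817% and 0.0760%. microRNA genes held 0.0705% and 0.0893% in shCTRL and 0.0612% and 0.0606% in shHMGB1, the only class of the 5 in which the lines did not overlap (exact permutation p = 0.333, adjusted p = 1). That class rested on few ends: its predicted member Gm23935 held 130 and 126 ends in shCTRL and 136 and 133 in shHMGB1, and Gm47284 held 94 and 89 in shCTRL and 96 and 151 in shHMGB1. snRNA genes, which make spliceosomal RNAs, resembled snoRNA genes at the 5′ edge only. In 11 genes with at least 20 ends, the first 10 bases held 38.8% and 35.7% of ends in shCTRL and 43.1% and 34.6% in shHMGB1. The last 10 bases held 0.145% to 1.41% in snRNA genes, against 21.5% to 27.6% in snoRNA genes. In 8 scaRNA genes the first 10 bases held 0.296% to 0.758% and the last 10 held 14.7% to 20.3%.

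The dense regions fell into kinds by what they cover. The largest kind was 5 regions over predicted genes of satellite-like sequence on chromosomes 2 and 9, Gm10800 and Gm10801 among them, with 12.8% and 9.27% of ends in shCTRL and 9.86% and 10.8% in shHMGB1. The ribosomal RNA repeat at chr17:39841995-39849347 held 6.22% and 3.57% in shCTRL and 5.07% and 3.12% in shHMGB1. A further 6 regions over snoRNA genes held 0.828% and 1.56% in shCTRL and 1.07% and 1.27% in shHMGB1. Reads in such repeats can come from any of their copies, so these values describe the repeat as the authors' alignment placed it. Another 8 regions were broad and of no other kind, with 3.82% and 3.27% of ends in shCTRL and 3.14% and 2.87% in shHMGB1. Both shHMGB1 libraries lay below both shCTRL libraries there, which held for no other kind, and the difference was not tested.

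A further 12 dense regions were spikes at 1 or a few bases, with 3.06% and 3.78% of ends in shCTRL and 3.496% and 3.396% in shHMGB1. At chr11:55220251, in an intron of Slc36a1, a lysosomal amino acid transporter, there were 2808 and 2957 ends in shCTRL and 4525 and 5589 in shHMGB1, or 5789 and 7541 CPM against 6542 and 6341 CPM. At chr2:27127108, in Fam163b, there were 4253 and 5740 CPM in shCTRL and 4754 and 4596 CPM in shHMGB1. The spike at chr5:92994442 had 3404 and 4549 CPM in shCTRL and 3473 and 3508 CPM in shHMGB1. In all 3 of these, both shHMGB1 values lay between the shCTRL values.

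The spike at chr13:54710935, in the cadherin-family gene Cdhr2, went the other way. It had 1447 and 1948 CPM in shCTRL and 2081 and 2330 CPM in shHMGB1, so the lines did not overlap, with means of 1698 ± 354 (SD, n = 2) and 2205 ± 177. Across the 32 dense regions, both shHMGB1 libraries lay above both shCTRL libraries in 5 and below in 3, counts to be read beside the 16.3% in each direction over 1 Mb windows. All 3 of those below were broad regions, and 4 of those above were spikes. Among the 3 was the broad region at chr3:5859337-5861803, in no annotated gene, with 12801 and 14309 CPM in shCTRL and 9632 and 11060 CPM in shHMGB1.

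A few dense regions differed more by replicate number than by line. The spike at chr16:57391467, where Cmss1 and Filip1l overlap, had 2361 CPM in shCTRL replicate 1 and 2585 CPM in shHMGB1 replicate 1, but 1140 and 727 CPM in the second replicates. The ribosomal RNA repeat was higher in replicate 1 of each line, and the spike inside Snord87 was higher in replicate 2 of each line, with 1072 and 3241 CPM in shCTRL and 1420 and 2478 CPM in shHMGB1. Whether the replicate numbers mark a shared day or preparation is not stated in the labels.

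The clearest difference between the lines was in how ends were spread over positions. With each library thinned to 392139 ends, distinct positions numbered 57.5 and 59.1 per 100 ends in shCTRL and 64.9 and 66.7 in shHMGB1, or 58.3 ± 1.17 (SD, n = 2) against 65.8 ± 1.28. Ends alone at their position made up 46.4% and 47.4% in shCTRL and 57.3% and 59.5% in shHMGB1. The gaps between the lines, 7.52 and 11.5 points, were several times the spread within a line, and both exact permutation p were 0.333, the smallest possible. Outside the dense regions the values were 74.5 and 72.8 per 100 ends in shCTRL and 81.1 and 82.5 in shHMGB1.

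The size of this gap depended on how far libraries were thinned. In the full libraries distinct positions numbered 55.0 and 59.1 per 100 ends in shCTRL and 60.08 and 59.95 in shHMGB1, a difference of 2.96 points, and at 100000 ends each the difference was 2.98 points. Ends at positions with at least 10 ends overlapped between the lines when dense regions were kept: they were 26.2% and 23.0% in shCTRL and 24.1% and 23.1% in shHMGB1 at equal size. The lines differed in positions with 2 to 9 ends. Outside the dense regions and at 100000 ends each, these held 17.5% and 17.96% of ends in shCTRL and 10.9% and 10.0% in shHMGB1. In that setting positions with at least 10 ends held 3.93% and 5.21% in shCTRL and 5.51% and 5.46% in shHMGB1, which did not overlap either.

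Library size moved with this measure across the series. With all 16 libraries thinned to 100000 ends outside the dense regions, distinct positions numbered 86.1 and 84.5 per 100 ends in shCTRL and 88.2 and 88.7 in shHMGB1 at 0 Gy. At 10 Gy, where totals were alike at 858494 and 845903 ends in shCTRL and 1010888 and 826051 in shHMGB1, the values were 91.6 and 91.6 against 91.3 and 91.4. The smallest library, shCTRL at 3 Gy replicate 2 with 131430 ends, had the lowest value, 78.3. The part of library size in the difference at 0 Gy was not tested.

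**Figure D4:**
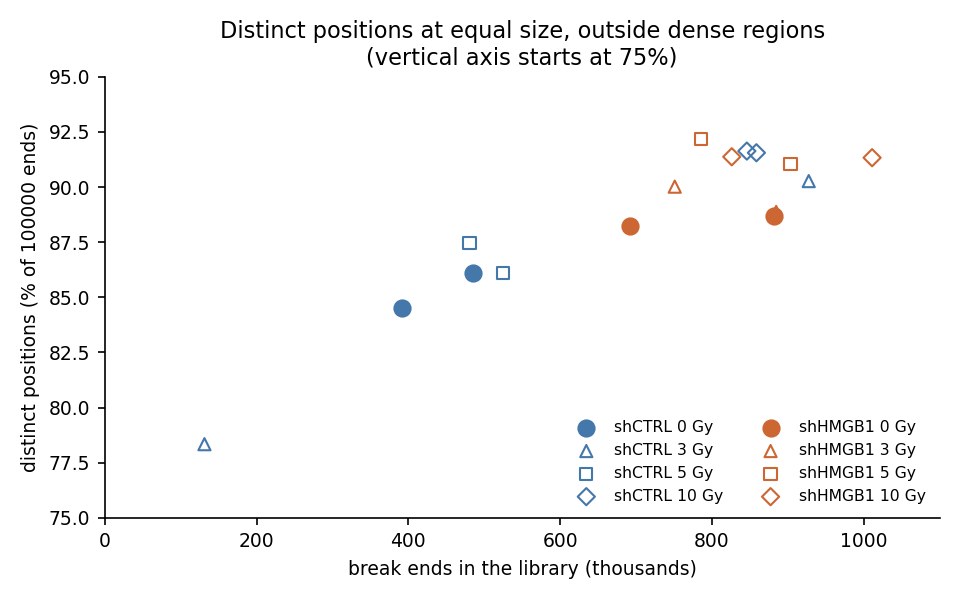
Distinct positions per 100 ends after thinning every library to 100000 ends outside dense regions (vertical axis from 75%), against the number of break ends in the library, with filled symbols for 0 Gy and open ones for 3, 5 and 10 Gy. The 2 shHMGB1 libraries at 0 Gy lie above the 2 shCTRL libraries and also have more ends, and at 10 Gy the lines lie side by side between 91.3 and 91.6.

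Single positions were seldom shared between libraries, within a line or across lines. At equal size, 13440 positions were shared by the shCTRL replicates, 5.97% and 5.80% of each library's positions, and 14379 by the shHMGB1 replicates, 5.65% and 5.50%. The 4 pairs across lines shared between 13363 and 14223 positions. As a share of each library's positions these were 5.11% to 6.24%, so replicates of a line and libraries of different lines lay in the same range.

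On the scale of chromosomes the libraries were close. Chromosome 19, the smallest autosome and rich in genes, had the most ends per length, 613 and 645 CPM per Mb in shCTRL and 599 and 593 in shHMGB1. Chromosome X had 187 and 183 in shCTRL and 178 and 193 in shHMGB1, and Y had 22.7 and 20.6 in shCTRL and 17.8 and 14.3 in shHMGB1. The Y values rest on few mappable bases, and copy number was not measured.

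Gene density ordered the genome in the same way in both lines. Outside the dense regions, and at equal size, the 7210 windows of 100 kb without a gene had 25.1 and 21.6 CPM per window in shCTRL and 23.5 and 24.3 in shHMGB1. The 134 windows with 10 or more genes had 161 and 183 CPM in shCTRL and 165 and 167 in shHMGB1. Windows without any end were 4.15% and 4.46% of 26327 in shCTRL and 3.99% and 3.90% in shHMGB1. Across 2560 windows of 1 Mb, as a description, Pearson's r was 0.928 between the shCTRL replicates, 0.970 between the shHMGB1 replicates and 0.948 to 0.955 across lines. These windows share library depth and gene content, and the shCTRL replicates, the 2 smallest libraries, were the least alike pair.

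The single genes with the smallest p at 0 Gy are described next, although none passed the test. Of all genes tested, both shHMGB1 libraries lay above both shCTRL libraries in 2409 (18.8%) and below in 1895 (14.7%). The 12 named genes of each direction, those of smallest p, were then read in the 12 irradiated libraries. The line difference of those libraries did not enter the 0 Gy contrast. They come from the same lines, however, and weigh in the spread that set the p-values at 0 Gy. There, the mean difference between lines over 3, 5 and 10 Gy passed edgeR's quasi-likelihood test with Benjamini-Hochberg adjustment for 14 of 12848 genes, 0.109%, all 14 lower in shHMGB1. Of the 12 named genes that were higher in shHMGB1 at 0 Gy, 6 kept that sign in the irradiated libraries and 0 passed. Of the 12 that were lower, 9 kept the sign and 2 passed, Ccn5 and Cldn34c1. How many of all tested genes kept their sign was not computed, so the counts of kept signs have no background to be read beside.

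Ccn5, a secreted matricellular protein of the CCN family (formerly Wisp2), was lower in shHMGB1 at every dose. At 0 Gy the gene (chr2:163820861-163833146) held 58 and 50 ends in shCTRL and 28 and 44 in shHMGB1, or 126 and 117 CPM against 39.5 and 48.5 CPM, scaled by TMM factors as are all CPM of genes, promoters and windows below. The ends lay at 51, 49, 27 and 40 different positions, so no single base carried the gene. The fitted log2 difference was -1.45 ± 0.36 (SE), with an adjusted p of 0.758 by edgeR's quasi-likelihood test at 0 Gy.

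Among the irradiated libraries Ccn5 had 41.7 to 107 CPM in shCTRL and 4.62 to 62.6 CPM in shHMGB1. The mean log2 difference over the 3 doses was -1.63 ± 0.24, with an edgeR adjusted p of 1.1e-05, and it was -2.79 at 3 Gy, -1.18 at 5 Gy and -1.08 at 10 Gy. Both shHMGB1 libraries lay below both shCTRL libraries at each dose. Ccn5 thus held fewer ends in shHMGB1 than in shCTRL among the irradiated libraries, and at 0 Gy the difference had the same sign without passing the test.

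Edem2, which marks misfolded glycoproteins for degradation in the endoplasmic reticulum, had the smallest p of all genes at 0 Gy, and a difference near 0 in the irradiated libraries. It held 22 and 28 ends in shCTRL and 4 and 15 in shHMGB1, or 47.9 and 65.3 CPM against 5.65 and 16.5 CPM. The log2 difference was -2.27 ± 0.50 with an edgeR adjusted p of 0.228. In the irradiated libraries it was -0.01 ± 0.28, with an adjusted p of 0.995 by the same edgeR test, and the ranges overlapped, 13.1 to 39.96 CPM in shCTRL and 16.9 to 34.2 CPM in shHMGB1.

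Apol6, of the apolipoprotein L family of lipid-binding proteins, had no end in either shCTRL library and 14 and 16 ends at 0 Gy in the shHMGB1 libraries, spread over 12 and 16 positions. With both shCTRL libraries at 0 no fold is given, and the edgeR adjusted p was 0.758. In the irradiated libraries the shCTRL values ran from 0 to 16.2 CPM and the shHMGB1 values from 7.09 to 23.5 CPM. The mean difference there had an edgeR adjusted p of 0.0860, and no fold is given because both shCTRL libraries at 5 Gy had 0 ends. At 10 Gy the lines overlapped, with 13 and 1 ends in shCTRL and 11 and 6 in shHMGB1.

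Other genes at the top of the list were less steady. Cox16, needed to assemble cytochrome c oxidase, held 10 and 14 ends in shCTRL and 54 and 71 in shHMGB1, a log2 difference of 1.51 ± 0.39, and 0.50 ± 0.21 in the irradiated libraries, with edgeR adjusted p of 0.793 and 0.403. Kcnd3, a voltage-gated potassium channel, held 12 and 11 ends in shCTRL and 47 and 50 in shHMGB1, a log2 difference of 1.22, and 0.07 in the irradiated libraries. Lancl2 held 2 and 1 ends in shCTRL and 23 and 22 in shHMGB1, and its log2 difference went from 3.00 at 0 Gy to 0.47. Atg3 and Chst12, an enzyme of autophagy and a chondroitin sulfotransferase, had log2 differences of 3.63 and 2.41 at 0 Gy and of -0.20 and -0.16 in the irradiated libraries.

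Among the lower genes some rested on 1 base in 1 library. Smox, spermine oxidase, held 46 and 4 ends in shCTRL and 9 and 10 in shHMGB1, and 26 of the 46 lay at chr2:131506005. Without shCTRL replicate 2 its log2 difference was -3.06, and without shCTRL replicate 1 it was 0.35. Map3k11, a kinase upstream of JNK, held 21 and 9 ends in shCTRL and 4 and 9 in shHMGB1, with 15 of the 21 at 1 base. Plau, the urokinase plasminogen activator, held 15 and 10 ends in shCTRL and 6 and 5 in shHMGB1 at 13, 9, 6 and 5 positions, with a log2 difference of -2.004 at 0 Gy and -0.47 in the irradiated libraries.

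Cldn34c1, a claudin-like gene on X with near-identical copies, held 11 and 18 ends in shCTRL and 4 and 10 in shHMGB1, a log2 difference of -1.92 ± 0.62. Within the irradiated libraries the difference between lines was -1.97 ± 0.38, lower in shHMGB1, with an edgeR adjusted p of 0.00495. Its assignment is uncertain, since reads from such copies can be placed on any of them. Hmgb1 itself (chr5:149046702-149184489) held 16 and 22 ends in shCTRL and 24 and 43 in shHMGB1, or 34.8 and 51.3 CPM against 33.9 and 47.4 CPM, a log2 difference of -0.07 ± 0.40. Break ends over Hmgb1 did not separate the lines, which says nothing of its RNA.

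**Figure D5:**
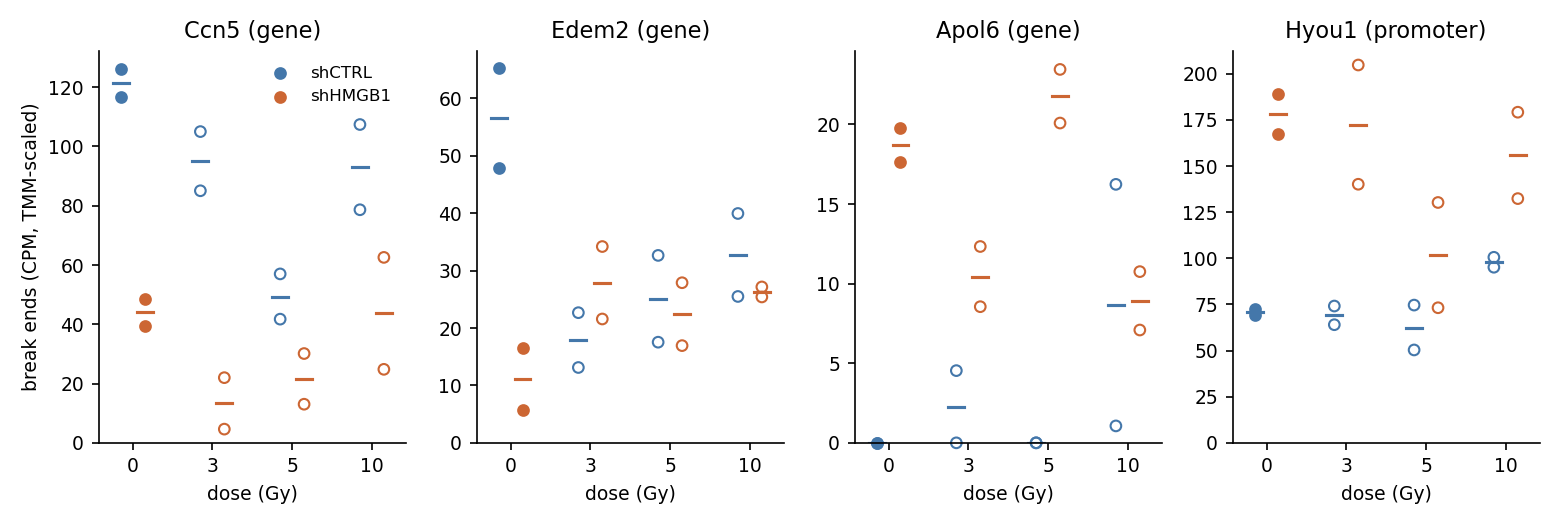
Break ends (CPM, TMM-scaled) in Ccn5, Edem2 and Apol6 and in the Hyou1 promoter window, by dose (Gy), with 1 point per library, bars at the mean of 2, and filled points for 0 Gy. Ccn5 is lower in shHMGB1 at every dose, while Edem2 separates the lines at 0 Gy and overlaps at 3, 5 and 10 Gy.

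Several promoters with the smallest p at 0 Gy had most of their ends at 1 base. Of 398 promoters with enough ends, 0 passed at 0 Gy and 0 (0%) passed for the irradiated line difference. Under library totals the median log2 difference of all promoters moved from -0.02 to -0.26, and with DESeq2 to -0.22, so differences are given relative to the TMM scale.

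Hyou1 is a chaperone of the endoplasmic reticulum induced by low oxygen. Its promoter held 38 and 40 ends in shCTRL and 142 and 151 in shHMGB1, of which 96.8% were at chr9:44379006 upstream of the start. The log2 difference was 1.33 ± 0.37, with an edgeR adjusted p of 0.449. In the irradiated libraries it was 0.89 ± 0.21, with an adjusted p of 0.0597 by the same edgeR test, and the ranges overlapped, 50.3 to 100.5 CPM in shCTRL and 73.2 to 205 CPM in shHMGB1.

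Tnfsf13, the B-cell survival factor APRIL, was similar. Its promoter held 50 and 45 ends in shCTRL and 148 and 180 in shHMGB1, at 2 to 6 positions a library, with 54.1% at the leading base. The log2 difference was 1.197 ± 0.35 at 0 Gy (edgeR adjusted p = 0.449) and 0.82 ± 0.20 in the irradiated libraries (edgeR adjusted p = 0.0597), where the 6 shCTRL libraries ran from 66.6 to 98.8 CPM and the 6 shHMGB1 libraries from 111 to 236 CPM without overlap.

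Other promoters on the higher side also rested on few bases. Fam83f held 37 and 41 ends in shCTRL and 106 and 109 in shHMGB1 with 63.8% at 1 base, and Trim12c held 7 and 11 against 24 and 36, all at 1 base. Their log2 differences were 0.88 and 1.13 at 0 Gy and 0.71 and 0.77 in the irradiated libraries. Tm4sf20 held 9 and 10 ends in shCTRL and 20 and 46 in shHMGB1. Of the 8 promoters with the smallest p on the higher side, 6 kept their sign in the irradiated libraries, and of the 8 on the lower side 7 did. The share of all tested promoters that kept their sign was not computed, so these counts have no background to be read beside.

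On the lower side the promoters had few ends. Irs1, the insulin receptor substrate, held 8 and 7 ends in shCTRL and 3 and 3 in shHMGB1, a log2 difference of -1.85. Hnrnpa2b1, an RNA-binding protein of splicing, held 6 and 13 in shCTRL and 2 and 3 in shHMGB1. Glg1, a Golgi protein, owed its place to 1 library, with 21 ends in shCTRL replicate 1, 17 of them at 1 base, and 0, 1 and 0 in the others.

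In windows of 1 Mb the lines were level in both directions. Both shHMGB1 libraries lay above both shCTRL libraries in 421 windows (16.3%) and below in 420 (16.3%). The smallest p belonged to chr14:13000001-14000000, which holds the synaptic vesicle gene Synpr, with 218 and 240 CPM in shCTRL and 144 and 119 CPM in shHMGB1. Its log2 difference was -0.80, with a 95% interval from -1.197 to -0.41 and an edgeR adjusted p of 0.509, and in the irradiated libraries it was 0.12. On the higher side, chr2:66000001-67000000, with sodium channel genes, had 168 and 136 CPM in shCTRL and 237 and 222 CPM in shHMGB1, a log2 difference of 0.58 ± 0.20, and 0.28 ± 0.10 in the irradiated libraries.

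One window on X was lower in shHMGB1 than in shCTRL among the irradiated libraries. At chrX:123000001-124000000, which holds Cldn34c1 and the multicopy Astx6, there were 83.0 and 102 CPM in shCTRL and 42.7 and 46.0 CPM in shHMGB1 at 0 Gy, a log2 difference of -1.04 ± 0.31 that did not pass. In the irradiated libraries it was -0.94 ± 0.18, with an edgeR adjusted p of 0.0142, 1 of 3 windows called there (0.116%), all 3 lower in shHMGB1. The window holds few ends, 38 and 39 in shCTRL and 29 and 41 in shHMGB1, and copies of its genes lie nearby.

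Windows of 100 kb gave larger fitted differences on fewer ends. The gene-free window chr8:44600001-44700000 held 1 and 1 ends in shCTRL and 24 and 19 in shHMGB1, a log2 difference of 3.44 ± 0.82 with an edgeR adjusted p of 0.382. In the irradiated libraries it was 0.19. The window chr7:115900001-116000000 in Sox6, a transcription factor, held 28 and 23 ends in shCTRL and 9 and 19 in shHMGB1, a log2 difference of -1.79, and 0.10 in the irradiated libraries. Of the 5 windows on each side, 4 of the higher and 2 of the lower kept their sign, a rate not computed over all windows. None of the 10 was among the 8 of 25127 (0.0318%) called for the irradiated line difference.

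Genes were also grouped by function, in 18 lists chosen with earlier results of these data known. By edgeR's test 0 members were called in each of the 18 lists. Of the chromatin genes, 8 of the 15 listed HMG box genes had enough ends to test. Both shHMGB1 libraries were above in 1 and below in 3, with a median log2 difference of -0.06, beside 0.02 over all tested genes. Hmga2, a minor-groove binding relative of HMGB1, held 75 and 83 ends in shCTRL and 84 and 142 in shHMGB1, a log2 difference of -0.37 ± 0.30. Linker histones and histone chaperones (8 tested of 17) had a median of -0.18, with Atrx at -0.25 ± 0.36, and remodelling enzymes (19 of 19) had a median of -0.08, with Smarca2, an ATPase of the BAF complex, at -0.08 ± 0.32. Over all tested genes the shares above and below without overlap were 18.8% and 14.7%.

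Genes that repair or answer breaks were similar. Of 20 tested double-strand break repair genes of 24 listed, 5 were above and 4 below without overlap, with a median of 0.00. Xrcc4 and Prkdc, both of end joining, held 80 and 66 against 177 and 216 ends, and 31 and 47 against 81 and 115 ends, with log2 differences of 0.57 ± 0.29 and 0.45 ± 0.31. Trp53bp1, a scaffold that shields broken ends, was at 0.01 ± 0.36. Of 9 p53 target genes tested, 2 were above and 1 below, and of 7 topoisomerase and related genes 1 was above. These counts stand beside 18.8% above and 14.7% below over all tested genes. Top1, which relaxes DNA ahead of polymerases, was at 0.05 ± 0.37.

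Ribosomal protein genes and snoRNA hosts held many ends in both lines, and their transcription was not measured. In Rpl3, which held 550 and 676 ends in shCTRL and 956 and 1172 in shHMGB1, most ends lay in Snord83b. That snoRNA gene held 533 and 639 in shCTRL and 918 and 1114 in shHMGB1. The ribosomal protein list had 37.8 and 60.5 CPM per kb in shCTRL and 50.8 and 49.4 in shHMGB1, and snoRNA hosts had 12.6 and 22.9 in shCTRL and 16.1 and 18.6 in shHMGB1. Their median log2 differences were -0.07 over 19 tested genes and -0.10 over 18. Rpl3 was at -0.07 ± 0.31, Gas5 at 0.04 ± 0.36 and Ncl, nucleolin, at -0.32 ± 0.32. Of 9 tested immediate early genes, 4 were above and 2 below, beside 18.8% and 14.7% over all tested genes. Dusp1, a phosphatase that switches off MAP kinases, held 84 and 87 ends in shCTRL and 194 and 241 in shHMGB1, a log2 difference of 0.48 ± 0.29.

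Long genes had low densities and sat close to 0. Large genes that include known fragile sites had 0.263 and 0.279 CPM per kb in shCTRL and 0.283 and 0.289 in shHMGB1, with a median difference of 0.12 over 20 tested genes, 4 above and 4 below. Lrp1b, a large lipoprotein receptor, was at -0.04 ± 0.29, and Macrod2, at 0.06 ± 0.35, drew most of its ends from the spike at chr2:142055213. Neuronal genes had 0.229 and 0.211 CPM per kb in shCTRL and 0.226 and 0.237 in shHMGB1. Of 20 tested, 8 were above and 1 below without overlap, with a median of 0.12, and Nrxn3 was at 0.11 ± 0.29. For both lists, the shares over all tested genes were 18.8% above and 14.7% below, and no member passed the test.

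Genes of cell identity were read only as DNA. Mesothelial genes had 0.235 and 0.173 CPM per kb in shCTRL and 0.280 and 0.269 in shHMGB1, with 6 of 14 tested. Blood-cell genes had 0.221 and 0.160 in shCTRL and 0.211 and 0.261 in shHMGB1, so break ends did not set mesothelial genes apart and cannot check the labelled cell type. Fibroblast and matrix genes were far denser, 4.59 and 5.94 CPM per kb in shCTRL and 5.58 and 4.90 in shHMGB1, with Col1a1 at 598 and 457 CPM in shCTRL and 627 and 494 CPM in shHMGB1. Of 18 tested genes of mesothelioma suppressor and Hippo pathways, 5 were above and 5 below, beside 18.8% and 14.7% over all tested genes. Tead1, a Hippo transcription factor, was at 0.25 ± 0.29.

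Whether the difference between lines at 0 Gy departed from that after irradiation was tested directly. In edgeR's interaction contrast, 0 of 12848 genes (0%) and 0 of 2578 windows of 1 Mb (0%) passed, with 674 genes and 104 windows at an unadjusted p under 0.05. DESeq2 gave 0 genes and 0 windows, with 371 and 78 at an unadjusted p under 0.05. Leaving out shCTRL replicate 1 gave 1 gene, Frrs1l, lower in shHMGB1 at 0 Gy than after irradiation.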

How the data were processed

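Per the labels, BLISS libraries were made from 2 hairpin lines at 4 doses. The deposited tables are counts: per row, the authors list break-end positions (column 4) and their number (column 5). The submitters' processing notes name mm10, Trimmomatic 0.32, UMI-tools, BWA 0.7.5-r404, SAMtools and bedtools; their order and settings are not given in the sources used here, and strand is not kept. Positions were made 1-based and counted over GENCODE M21 genes, promoters (1 kb each side of a start) and windows on 21 chromosomes. edgeR 4.0.16 (R 4.3.3; TMM, filterByExpr, glmQLFit) was fitted to all 16 libraries with 8 group means, and p-values were Benjamini-Hochberg adjusted over all features. Single values had exact permutation tests. CPM of shares, positions and CPM per kb use library totals. Scripts were tested on simulated data. Other steps ran in Python 3.11.15 (scipy 1.17.1, pandas 2.3.3).

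Named were the 12 genes, 8 promoters and 5 windows of each size of smallest p on each side, the densest genes, the 10 hottest positions, the 3 members of each list with the most ends, and Hmgb1. Predicted genes were left out among the 12. Members and lists were chosen with earlier results of these data known. Alternatives were DESeq2 1.42.0, library totals, no filter, only 4 libraries, a replicate block, each position once, at most 3 ends per position, thinning to 392139 ends, 2.5 kb promoters and leaving out libraries. The irradiated check of named features, the 16-library thinning and the alternatives of the interaction were added after seeing the data.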

Additional observations from a re-analysis of the deposited data

Results flagged for a closer look

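Ends on unplaced scaffolds, which no comparison used, made up 0.461% and 0.411% of all ends in the shCTRL libraries and 0.516% and 0.511% in the shHMGB1 libraries at 0 Gy. Both shHMGB1 values lay above both control values (difference 0.0775 percentage points, exact permutation p = 0.333, the smallest possible). The 12 irradiated libraries ran from 0.444% to 0.745%.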

How the results depend on the processing

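Depth limits single genes and promoters most, and 2 libraries a line cannot give an exact p under 0.333. Leaving out 1 library at a time gave 0 to 1 genes at 0 Gy (Smox, lower, without shCTRL replicate 2), 0 to 1 windows of 100 kb and 0 to 1 genes in the interaction. The labels do not say that the replicate numbers pair libraries, and replicate differences correlated little between lines at 0 Gy (0.0016 over 1 Mb windows, 0.059 over genes), although some dense regions differed by number in both lines. With the replicate block within each line 2 promoters passed, Hyou1 and Tnfsf13, both higher (edgeR adjusted p 0.0346 and 0.0407), and 0 genes and 0 windows, and with a block shared by both lines 0 of any kind. In this balanced layout a block cannot change a difference of mean shares.

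Over single libraries left out, differences in percentage points ran from -2.31 to 0.834 for promoters, -1.97 to 0.0953 for exons, -1.68 to 3.01 for introns, -4.65 to 0.610 for dense regions, -0.778 to 0.721 for snoRNA, -0.316 to 0.114 for rRNA, -0.0135 to 0.0337 for snRNA, -0.0163 to 0.0071 for scaRNA, -2.59 to 0.570 for ends at positions with at least 10 ends and -0.0900 to 0.0616 for mitochondrial ends. The log2 difference ran from -3.06 to 0.35 for Smox and from -0.34 to 0.24 for Hmgb1.

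Signs turned outside dense regions for introns (-0.165), rRNA (0.000874) and ends at positions with at least 10 ends (0.856; 1.36 in full libraries). They turned for snRNA with each position once (-0.0220), with at most 3 ends per position (-0.0207) and thinned with each position once (-0.0143), where introns (-0.0592) and scaRNA (0.00238) also turned, and for Hmgb1 with each position once (0.15). The cause was not tested.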

Other observations

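An interval around Cdkn2a, the tumour suppressor locus often lost in mesothelioma, was nearly empty of break ends in both lines; it was chosen after the values were seen. At chr4:88500001-89900000 there were 6 and 2 ends in shCTRL and 21 and 14 in shHMGB1, against 274 and 236 and 456 and 546 in flanks of 28 windows of 100 kb. Per window that is 4.38%, 1.69%, 9.21% and 5.13% of the flank density. Cdkn2a had 1 end over the 4 libraries and 3 over the 12 irradiated ones, and Cdkn2b, Mtap and Dmrta1 had 0 over the 4. Outside it, Focad had 276 ends and Mllt3 203 over the 4 libraries. Copy number was not measured.

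Several other runs of near-empty windows covered multigene families, while some held no annotated gene. The run chr2:175200001-176700000, with Zfp genes, held 0 and 1 ends in shCTRL and 0 and 1 in shHMGB1, beside 476 and 391 and 632 and 858 in its flanks. The run chr4:41900001-42800000, with Ccl21 and Fam205a genes, held 0 in each of the 4 libraries, beside 406 and 366 and 565 and 705 in its flanks.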
